A study of Mus musculus with 6 samples.

Results

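The skeletal muscle contractile genes are 35 genes that build, anchor, trigger or fuel the striated sarcomere. They were chosen by name from the 23361 genes of the table, after FPKM values of these same data had shown muscle genes higher at the older age, so the direction of their change is described here and is not tested. All 35 were found. The values come from taste cells freed by enzyme from the circumvallate (CV) and foliate (Fol) papillae of C57BL/6 mice, for which no mutation or drug is named. The 2 month group has 3 pools of 4 mice each and the 6 month group has 3 pools of 3 mice each. The sex of the mice is not named. The authors give 1 FPKM value per gene and age, taken over the 3 libraries (FPKM counts fragments per kilobase of transcript, relative to the size of the library). No SD, confidence interval or test can therefore be given for any difference below, and the depth of the libraries is unknown.

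Skeletal muscle shortens when thick filaments of myosin pull on thin filaments of actin. Calcium released from the sarcoplasmic reticulum binds troponin C, the troponin complex moves tropomyosin aside, and myosin heads reach actin. Fast and slow fibres carry different genes for many of these parts, and the body of the tongue, which lies beneath the taste epithelium, is a fast skeletal muscle. Taste cells themselves are epithelial cells.

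The muscle genes had low values in both ages, and most were somewhat higher at 6 months. Only 11 of the 35 had a mean over both ages of at least 1 FPKM, and 24 genes at 2 months and 27 at 6 months reached 0.1 FPKM. For scale, Gnat3, which encodes the alpha subunit of gustducin, had 84.7 FPKM in 2 month cells and 79.9 FPKM in 6 month cells. Of the 35 genes, 31 were higher at 6 months (88.6%), while 47.6% of all 18878 genes with a value above 0 were. Among the 11690 genes whose mean lay in the range of the muscle genes (0.0104 to 11.6 FPKM, Tpm2 left out), 51.5% were higher at 6 months. With 1 added to each FPKM, 6 genes were at least 1.5 times as high at 6 months, namely Tnnc2, Mb, Tcap, Acta1, Tnnt3 and Ckm, against 0.742% of all genes with a value above 0 and 0.539% of those in the same range. By the same measure 0 of the 35 genes and 1.24% of all genes were lower by that factor. The pseudocount of 1 holds down the change of weak genes. With a pseudocount of 0.1 the number was 9, the further ones being Myh1, Myoz1 and Actn2, against 2.73% of all genes and 3.74% of those in the same range, and 1 gene, Pvalb, was lower by that factor, against 3.29% of all genes. In whole pools of cells, more muscle cells, more RNA per muscle cell and low expression in other cells cannot be told apart. Which cells these reads came from, and the part of overlapping or related genes in them, was not tested.

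**Figure D1:**
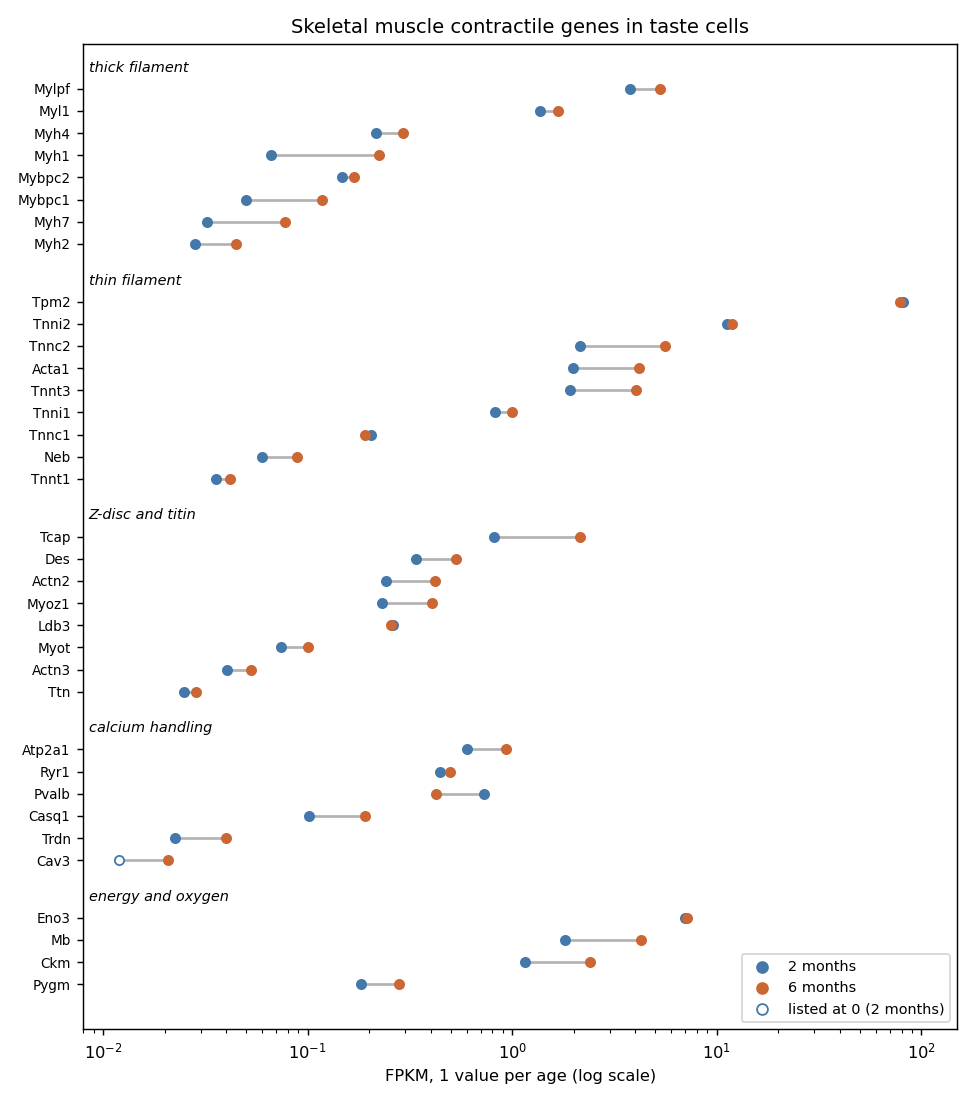
FPKM at 2 months (blue) and 6 months (orange) for the 35 genes, ordered by role and by their 6 month value on a log axis. Grey lines join both ages of a gene, and an open circle marks Cav3, listed at 0 at 2 months and drawn at the left for display. The 6 month point lies to the right for 31 genes, and Tpm2 stands apart at 81.0 and 78.8 FPKM.

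The upstream sequences of these genes carry a feature that the choice of members did not use. The myogenic factors of the MyoD family bind E-boxes, of which CAGCTG is a preferred form. Of the 35 genes, 27 matched a start in the RefSeq promoter table (GRCm38.p6), and CAGCTG occurred on either strand (it reads the same on both) within the 250 bases before a start in 14 of these 27 genes (51.9%), against 14.7% of 27025 genes and 13% of 32851 promoters of the same length. The TATA sequence TATAAA was found in 5 of the 27 (18.5% against 14.3% of genes and 12.4% of promoters) and the CArG box, bound by serum response factor, in 3, those of Acta1, Ldb3 and Myh4 (11.1% against 1.62% of genes and 1.47% of promoters). The MEF2 box was found only in that of Ttn (3.70% against 0.592% of genes and 0.508% of promoters). These are matches of letters in short windows and say nothing of binding. The 250 bases before the start of 4 genes are shown because Acta1, Mb and Tnnc2 had some of the larger differences between the ages and Mylpf has its E-box closest to the start of those 4, with CAGCTG in capitals. Acta1 lies on the minus strand (chr8:123894776-123895025), Mb on the minus strand (chr15:77022788-77023037, one of its 3 listed starts), Mylpf on the plus strand (chr7:127211358-127211607) and Tnnc2 on the minus strand (chr2:164779735-164779984).
Acta1: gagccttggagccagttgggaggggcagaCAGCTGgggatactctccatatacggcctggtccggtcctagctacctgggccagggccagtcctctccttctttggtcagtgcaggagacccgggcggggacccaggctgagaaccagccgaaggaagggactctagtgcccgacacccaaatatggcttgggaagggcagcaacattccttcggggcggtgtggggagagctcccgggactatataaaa
Mb: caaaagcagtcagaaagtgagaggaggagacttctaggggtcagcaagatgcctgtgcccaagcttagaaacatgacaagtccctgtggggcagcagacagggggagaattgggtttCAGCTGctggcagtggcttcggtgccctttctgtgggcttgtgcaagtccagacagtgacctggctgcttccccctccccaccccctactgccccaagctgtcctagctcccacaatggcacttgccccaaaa
Mylpf: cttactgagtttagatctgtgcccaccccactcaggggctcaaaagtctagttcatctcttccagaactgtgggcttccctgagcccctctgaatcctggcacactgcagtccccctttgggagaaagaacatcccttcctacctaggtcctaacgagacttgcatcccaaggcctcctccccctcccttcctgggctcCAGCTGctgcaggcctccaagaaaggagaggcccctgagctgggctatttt
Tnnc2: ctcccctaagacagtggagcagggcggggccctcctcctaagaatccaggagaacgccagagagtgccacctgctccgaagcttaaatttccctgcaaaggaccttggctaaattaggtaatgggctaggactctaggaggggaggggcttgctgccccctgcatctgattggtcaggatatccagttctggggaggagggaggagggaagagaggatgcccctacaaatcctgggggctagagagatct
The E-box begins 221 bases before the start in Acta1, 133 bases in Mb and 51 bases in Mylpf. The window of Tnnc2 holds none, and Tnnc2 was 2.60 times as high at 6 months, and that of Tpm2 holds one, and Tpm2 was 0.972 times as high.

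The thick filament genes were low, and all 8 were higher at 6 months. Mylpf, the regulatory light chain of fast fibres, led them with 3.76 FPKM in 2 month cells and 5.25 FPKM in 6 month cells, a difference of 0.39 in log2(FPKM + 1). Myl1, the essential light chain of fast fibres, had 1.36 and 1.67 FPKM. The heavy chains, which form the motor itself, were far lower per length than the light chains. Myh4, the heavy chain of the fastest (IIb) fibres, had 0.216 FPKM in 2 month cells and 0.293 FPKM in 6 month cells, and Myh1, that of IIx fibres, had 0.0660 and 0.223 FPKM. Myh1 thereby had the largest ratio of all members, 3.38, at a level where ratios of all genes scatter widely. Myh2, the IIa heavy chain, had 0.0283 and 0.0445 FPKM and Myh7, the slow heavy chain, 0.0324 and 0.0775 FPKM. Of the windows of 50 bases in the transcripts of Myh1, Myh2, Myh4 and Myh7, 27.4%, 26.9%, 18.9% and 22.2% also occur in transcripts of other genes, mostly other myosin heavy chains, so reads can be split among them. Mybpc2 and Mybpc1, the fast and slow myosin-binding proteins C, had 0.147 and 0.05 FPKM in the younger cells and 0.169 and 0.118 FPKM in the older ones.

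The thin filament holds both some of the largest differences and some of the most level genes. Tnnc2, the calcium sensor of fast fibres, had 2.14 FPKM in 2 month cells and 5.57 FPKM in 6 month cells, a log2 difference of 1.07, the largest among the members on that scale. Tnnt3, which ties fast troponin to tropomyosin, had 1.92 and 4.02 FPKM (0.78), and Acta1, skeletal muscle actin, 1.98 and 4.15 FPKM (0.79). These 3 genes were 2.09 to 2.60 times as high at 6 months. Tnni2, the inhibitory subunit of fast troponin, hardly differed, unlike these. It had 11.2 FPKM in 2 month cells and 11.9 FPKM in 6 month cells, a ratio of 1.06. The subunits of the fast troponin complex, which muscle uses in equal numbers, were thus at unequal levels per length, Tnni2 being 5.65 times Acta1 at 2 months and 2.87 times at 6 months, while Tnnc2 was 1.08 and 1.34 times Acta1 and Tnnt3 0.970 and 0.968 times. Tpm2, beta-tropomyosin, which smooth muscle and other cells use too, had by far the highest value of the members, 81.0 FPKM in 2 month cells and 78.8 FPKM in 6 month cells. Neb, the giant ruler protein nebulin, had 0.0597 and 0.0891 FPKM. The slow subunits Tnni1 (0.822 and 0.993 FPKM), Tnnc1 (0.203 and 0.191 FPKM) and Tnnt1 (0.0358 and 0.0419 FPKM) were lower than their fast counterparts at both ages.

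Tnnc2 and Acta1 need a word on where their reads can come from. Tnnc2 lies on chromosome 2 of GRCm38 from 164777161 to 164779967 on the minus strand, and 592 of the 700 bases (84.6%) of its 6 exon transcript overlap an exon of Ube2c, a cell cycle gene on the other strand, in the GENCODE annotation. That exon belongs to a Ube2c transcript without a RefSeq match, and the preparation is not stated to keep the strand. Ube2c had 35.1 FPKM in 2 month cells and 31.5 FPKM in 6 month cells. The level of that transcript is not known, and its part in the values of Tnnc2 was not tested. Acta1, a gene of 7 exons on chromosome 8 from 123891769 to 123894751, shares 2.22% of its windows of 50 bases with other genes, among them Actb, the cytoplasmic actin, which had 682 FPKM in 2 month cells and 544 FPKM in 6 month cells. Mb shares 408 of the 1104 bases (37.0%) of its transcript with the predicted gene Gm49540 on the other strand. Of Ckm, 451 of 2742 bases (16.4%) overlap A930016O22Rik, of Atp2a1 763 of 3477 bases (21.9%) overlap Rabep2, and of Des 220 of 3028 bases (7.27%) overlap Gm15179, all on the other strand. Myl1 shares 23.4% of its windows of 50 bases with Mylf-ps, and the part of that gene in its values was not tested. Tnnt3, Tcap and Mylpf share 0% of their transcript with exons of other genes and 0% of their windows. The same holds for Tnni2, Eno3, Myoz1, Tnni1, Tnnt1, Cav3, Myot, Neb and Trdn, which were also higher at 6 months. It holds too for Pvalb, Tnnc1, Ldb3 and Tpm2, the members that were lower at 6 months.

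Among genes of the Z-disc, where thin filaments are anchored, Tcap, the telethonin that caps titin, stood out. It is a short gene of 2 exons on chromosome 11, from 98383811 to 98384953, and it had 0.811 FPKM in 2 month cells and 2.15 FPKM in 6 month cells, a log2 difference of 0.80. Actn2 and Actn3, the alpha-actinins that crosslink actin at the Z-disc, had 0.242 and 0.0402 FPKM in the younger cells and 0.419 and 0.0527 FPKM in the older ones. Des, the intermediate filament desmin, had 0.337 and 0.532 FPKM and Myoz1, a calcineurin-binding Z-disc protein of fast fibres, 0.230 and 0.406 FPKM. Myot (myotilin) had 0.0742 and 0.1 FPKM. Ldb3, which binds alpha-actinin, was level at 0.260 and 0.256 FPKM. Ttn, titin, the spring that runs from Z-disc to mid-sarcomere, had 0.0250 and 0.0286 FPKM and a ratio of 1.14. The summed FPKM of these 8 genes was 2.02 at 2 months and 3.94 at 6 months.

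Of the 6 calcium handling genes 5 were higher at 6 months and 1 was lower, all of them under 1 FPKM. Atp2a1, the fast fibre pump that returns calcium to the sarcoplasmic reticulum, had 0.603 FPKM in 2 month cells and 0.936 FPKM in 6 month cells. Casq1, which stores calcium there, had 0.102 and 0.191 FPKM, and Trdn, triadin, which links the store to the release channel, 0.0224 and 0.0401 FPKM. Ryr1, the release channel of skeletal muscle, was nearly level at 0.445 and 0.495 FPKM. Pvalb, the calcium buffer parvalbumin, which is also abundant in some neurons, was lower at 6 months, with 0.725 FPKM in 2 month cells and 0.424 FPKM in 6 month cells, a ratio of 0.585. It was the only member besides Tnnc1, Ldb3 and Tpm2 with a lower value at 6 months, and the other 3 had ratios of 0.939, 0.984 and 0.972. Cav3, the muscle caveolin, was listed at 0 at 2 months and at 0.0208 FPKM at 6 months, so no ratio is given. An exact 0 in this table can also be a failed estimate, since Krt4, an abundant keratin of the lingual epithelium, is listed at 7334 FPKM at 2 months and at 0 at 6 months.

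The genes that supply energy and oxygen to muscle were all higher at 6 months, but not equally. Ckm, the muscle creatine kinase, which regenerates ATP, had 1.16 FPKM in 2 month cells and 2.39 FPKM in 6 month cells (log2 difference 0.65). Mb, myoglobin, the oxygen store of oxidative fibres, had 1.82 and 4.28 FPKM (0.90). Pygm, the muscle glycogen phosphorylase, had 0.182 and 0.281 FPKM. Eno3, the muscle form of the glycolytic enzyme enolase, had a higher level than these and the smallest ratio of the 4, with 7 and 7.12 FPKM. Eno3, Tnni2 and Tpm2, the 3 members above 5 FPKM at 2 months, had ratios of 1.02, 1.06 and 0.972. Summed over all 35 members, the FPKM was 119 at 2 months and 134 at 6 months, a ratio of 1.12, and most of it was Tpm2. Without Tpm2, a sum chosen after the values had been seen, it was 38.1 and 55.0, a ratio of 1.44.

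Fast and slow fibre isoforms were compared within 5 families that have both. The fast form made up most of the FPKM in each family at each age. It held 91.3% of troponin C at 2 months and 96.7% at 6 months, 93.2% and 92.3% of troponin I, 98.2% and 99.0% of troponin T, and 90.6% and 87.9% of the myosin heavy chains. The lowest share was that of the myosin-binding proteins C, 74.6% at 2 months and 58.8% at 6 months, which rests on values under 0.2 FPKM. Over the 5 families together the fast share was 93.2% and 94.0%. It was higher at 6 months in 2 families, troponin C and troponin T, and lower in 3. The gain in troponin C rests on Tnnc2, whose overlap with Ube2c is given above. The slow partners of Mylpf and Myl1, which are Myl2 and Myl3, were listed at 0 at both ages. An exception to the fast pattern was calsequestrin, where Casq1 held 26.7% and 32.7% against Casq2, the form of heart and slow fibres.

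**Figure D2:**
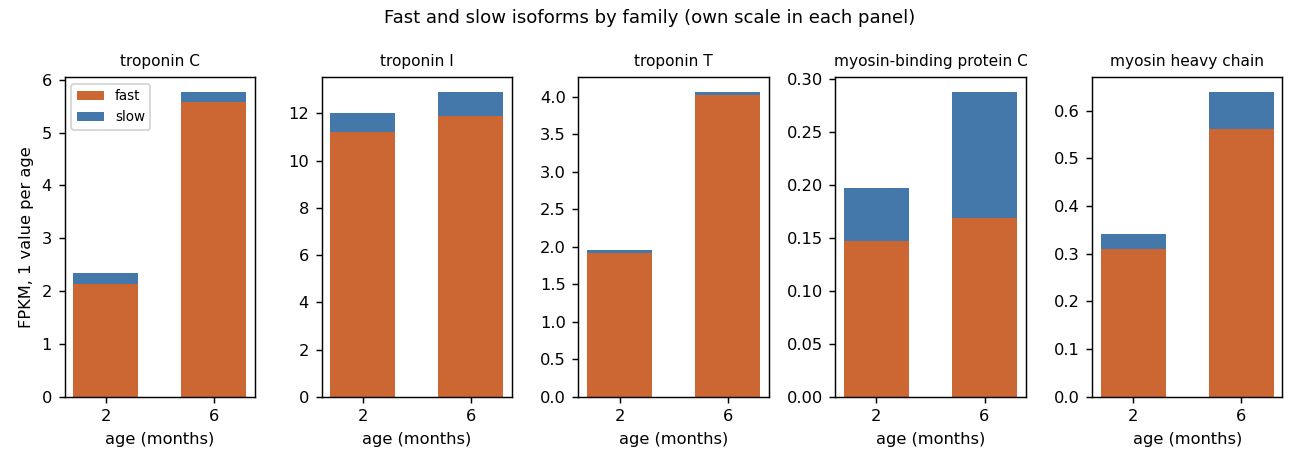
Stacked bars of FPKM at 2 and 6 months for the fast (orange) and slow (blue) genes of 5 families, each panel on its own scale starting at 0. The fast part is the larger one in every bar, and the troponin C and troponin T bars are more than 2 times as high at 6 months as at 2 months, whereas the troponin I bars differ little.

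Of all genes with a value above 0, 47.6% were higher at 6 months. Of the 14 fast isoforms 13 were higher, of the 5 slow isoforms 4, and of the 16 genes used by all fibre types 14. Their median differences in log2(FPKM + 1) were 0.15, 0.06 and 0.04, beside -0.01 over all genes with a value above 0. The fast genes ranged from -0.28 (Pvalb) to 1.07 (Tnnc2) and the slow genes from -0.02 (Tnnc1) to 0.13 (Tnni1). The slow genes lie at lower levels, where a pseudocount of 1 leaves little room for a change. With a pseudocount of 0.1 the medians were 0.39, 0.25 and 0.26, beside -0.01 over all genes with a value above 0. Whether fast and slow genes differ in their change was not tested, since there is 1 value per age.

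The amount of signal behind each value differs more than FPKM shows, because FPKM divides by length. FPKM multiplied by transcript length in kilobases, here called the fragment level, is proportional to the number of fragments. For it the longest RefSeq-matched transcript of the GENCODE annotation was used. Ttn, with a transcript of 100404 bases and 312 exons, had a fragment level of 2.51 at 2 months and 2.87 at 6 months. Tcap had fragment levels of 0.768 and 2.04, although its FPKM was far above that of Ttn. Ryr1 had 6.83 and 7.60, Acta1 2.87 and 6.01, Ckm 3.18 and 6.56, and Tnnt1 only 0.0379 and 0.0444. Over the 35 genes the Spearman correlation across genes of transcript length with mean FPKM was -0.55, and with the fragment level it was -0.09. Over 16161 genes with a length and a value above 0, the correlation of length with FPKM was -0.05. Genes are not independent replicates, and these values describe these libraries only.

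The members other than Tpm2 were split at their median fragment level of 1.16. In the upper 17 genes the ratio of 6 to 2 months was at least 1.5 for 8, against 4.12% of the 3107 genes with a fragment level in the same range, where the 5th and 95th percentiles of the ratio were 0.693 and 1.46. The 8 were Acta1, Atp2a1, Ckm, Des, Mb, Tcap, Tnnc2 and Tnnt3. Tcap and Des lie above the split only through their 6 month value, where they are high, and among the other 15 upper genes the ratio was at least 1.5 for 6. Since the members were chosen on these values, these counts are a description. In the lower 17 genes, of which 16 have a ratio, it was at least 1.5 for 9, against 23.0% of 3073 genes, whose 5th and 95th percentiles were 0.325 and 2.93. The ratio of 3.38 for Myh1 lies outside that range, whereas those of Myh7 (2.39), Mybpc1 (2.36) and Pvalb (0.585) lie within it. The median ratio was 1.49 in the upper genes, or 1.4 in the 15 without Tcap and Des, and 1.56 in the lower genes. Summed fragment levels were 52.3 at 2 months and 73.7 at 6 months in the upper genes, Tcap and Des included, and 5.41 and 8.37 in the lower genes.

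**Figure D3:**
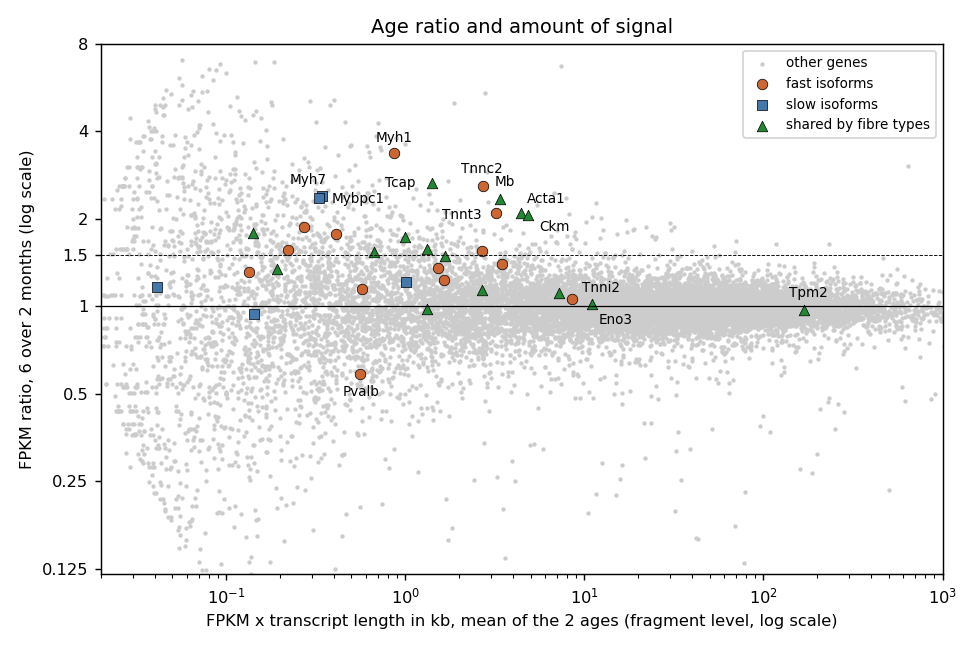
FPKM ratio of 6 over 2 months against fragment level (FPKM times kilobases of transcript, mean of both ages) on log axes, for the 34 members with a value above 0 at both ages (coloured by fibre type) and for other genes (grey, those with ratios outside the axis not drawn). The solid line marks equal values and the dashed line a ratio of 1.5. The 6 genes with ratios from 2.07 (Ckm) to 2.65 (Tcap) among the upper 17 genes lie above most grey points. Tcap is among these 17 only through its 6 month value. Grey points spread widely at low fragment levels, where Myh1 and Pvalb lie.

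The muscle forms were minor next to their non-muscle relatives. Acta1 was 0.290% of the sum of Acta1 and Actb at 2 months and 0.758% at 6 months. Myl1 was 0.128% and 0.176% of its sum with Myl6, and Mylpf 3.04% and 4.67% of its sum with Myl12a. Ckm was 6.70% and 13.1% of its sum with Ckb, the brain creatine kinase, which was level at 16.1 and 15.9 FPKM. Atp2a1 was 0.584% and 0.933% of its sum with Atp2a2, the pump of most other cells. Ryr1 and Tpm2 were exceptions. Ryr1 was 97.4% and 98.8% of its sum with Ryr3, and Tpm2 was 32.1% and 30.3% of its sum with Tpm4. Of the 21 non-muscle paralogues listed, 7 had the higher value at 6 months (33.3%, against 47.6% of all genes with a value above 0). Their median log2 difference was -0.05.

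Other genes of striated muscle, from a list written with earlier results of these data known, were higher at 6 months in a smaller share, a difference that was not tested. Of 58 genes, 53 had a value above 0, and 31 of these were higher at 6 months (58.5%, against 47.6% of all genes with a value above 0). Their median log2 difference was 0.02. With 1 added to each FPKM, 2 were at least 1.5 times as high at 6 months, both named here after their values had been seen, against 0.742% of all genes. With a pseudocount of 0.1, 9 of the 53 were higher and 2 lower by that factor, against 2.73% and 3.29% of all genes. The median was then 0.08. Cox8b, a heart and skeletal muscle subunit of cytochrome c oxidase, had 1.15 FPKM in 2 month cells and 3.18 FPKM in 6 month cells. Sln, sarcolipin, an inhibitor of the calcium pump, had 0.280 and 1.07 FPKM. The most abundant genes of that list, Tpm3 (138 and 144 FPKM) and Tpm1 (116 and 116 FPKM), are tropomyosins that non-muscle cells use too. The myogenic factors that define muscle cells and their precursors were at or near 0: Myf5 was listed at 0 at both ages, Myod1 and Myf6 at 0 at 6 months, and Myog had 0.0141 and 0.0351 FPKM.

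Markers of most other tissues beneath the epithelium were, as lists, more often lower than higher at 6 months, the adipocyte list being the exception. The same was true of all genes with a value above 0, of which 47.6% were higher, and the 40% of the endothelial list lies near that share. The lists are short, and whether they differ from all genes or from the muscle genes was not tested. Of 9 smooth muscle markers above 0, 2 were higher at 6 months, and their summed FPKM was 37.1 at 2 months and 33.9 at 6 months, most of it Smtn (31.1 and 28.2 FPKM), with Myocd listed at 0 at both ages. Of 12 fibroblast markers 4 were higher, and their sum was 46.4 and 32.1 FPKM, most of it Dcn (42.0 and 27.3 FPKM). Of 10 endothelial markers 4 were higher, with sums of 6.75 and 6.17 FPKM, and of 10 nerve and Schwann cell markers 3, with sums of 28.4 and 24.8 FPKM. Of 10 adipocyte markers 6 were higher, and the sum of 1.07 and 3.82 FPKM rests on Fabp4, which had 0.692 FPKM in 2 month cells and 3.48 FPKM in 6 month cells, whereas Adipoq, the adiponectin gene, had 0.0444 and 0.0192 FPKM. Of 13 taste cell markers 8 were higher, with sums of 580 and 535 FPKM. Of 7 markers of the lingual epithelium above 0, 3 were higher, with sums of 12611 and 5379 FPKM that differ mostly through the 0 of Krt4. The part of these markers in the muscle values was not tested.

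**Figure D4:**
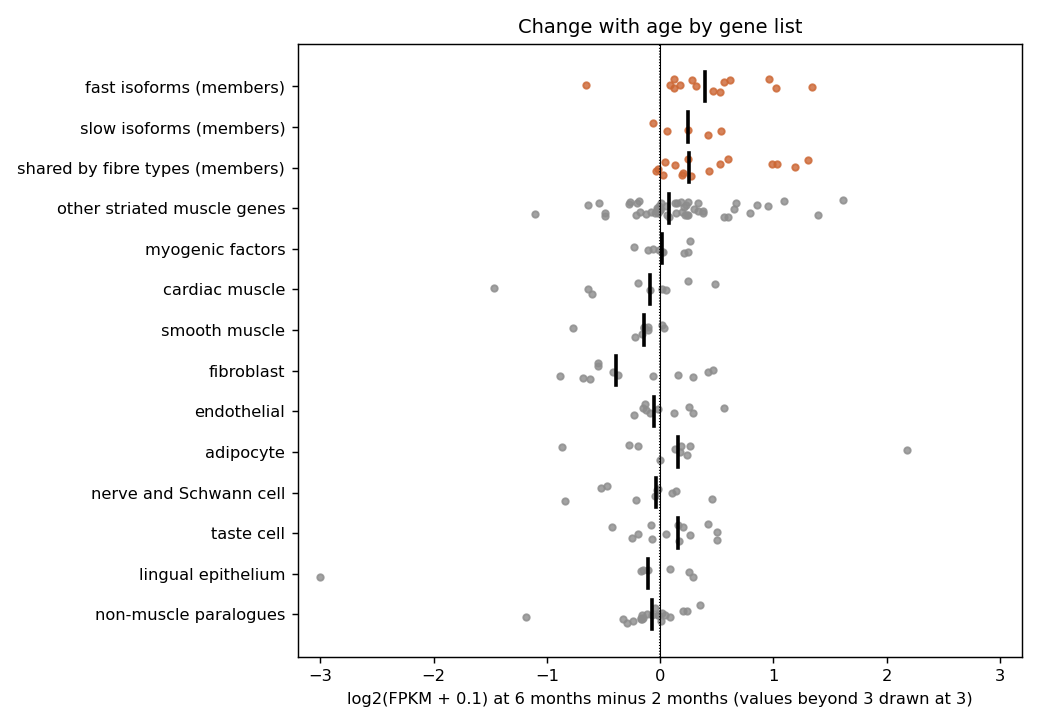
Difference in log2(FPKM + 0.1), 6 minus 2 months, for each gene with a value above 0 (points, spread vertically for display) in the 3 groups of members (orange) and in 11 lists set beside them (grey), with the median of each list as a black bar. Solid and dotted vertical lines mark 0 and the median of all genes. The bars of the fast, slow and shared members stand at 0.39, 0.25 and 0.26, and that of the fibroblast markers at -0.39. Krt4 is the grey point at the left edge.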

How the data were processed

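RNA of isolated CV/Fol taste cells was sequenced in 3 pooled libraries per age (2 and 6 months, groups from the age in the labels). The authors mapped reads to GRCm38/mm10 with TopHat2 2.0.7 and a RefSeq annotation, estimated FPKM with Cufflinks 2.1.1 and compared the ages with Cuffdiff, whose library normalization is not given in the sources used here. They deposited 1 FPKM value per age for 23361 genes, and p-values of their own comparison, which the authors deposited without adjustment and which were not used here. The 6 month column was identified by the letter it shares with sample titles. No value per library was used, so no test across replicates, SD or depth can be given.

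The difference of log2(FPKM + 1), 6 minus 2 months, was computed for all genes, and a fold of at least 1.5 on that scale was counted as a change. Genes at 0 at both ages (4483) were left out of counts. Positions, transcript lengths and exon overlaps came from GENCODE, and upstream sequences from RefSeq, both of GRCm38. The members, roles, gene lists and fast and slow families were chosen with earlier results of these data known. All members are named, as are the most abundant genes of some lists and partners of members. Others were picked after their values had been seen. The counting was tested on made-up changes. The alternatives were a pseudocount of 0.1, a mean of at least 1 FPKM, equal upper quartiles and a shorter list. The scripts ran under Python 3.11.15 with pandas 2.3.3, scipy 1.17.1, matplotlib 3.10.9 and numpy 2.4.6.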

Additional observations from a re-analysis of the deposited data

How the results depend on the processing

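No paired analysis was possible because single libraries have no values of their own here, and for the same reason values without each replicate were not computed. A pseudocount of 0.1 moved the median log2 difference of the 35 genes from 0.09 to 0.28, that of the fast isoforms from 0.15 to 0.39 and that of the slow isoforms from 0.06 to 0.25. Keeping only genes that averaged 1 FPKM or more gave 0.65 over the 11 genes left. Of these 10 were higher at 6 months, against 46.3% of all genes with such a mean. Tcap passed only through its 6 month value, and the median of the other 10 genes was 0.52. The same filter gave 0.39 over the 5 fast isoforms left. No slow isoform was left, so that median and the fast share could not be computed. Scaling the 6 month values by 1.03, to equal upper quartiles, moved the median of all genes averaging 1 FPKM or more by 0.04, gave medians of 0.10 over all members and 0.16 over the fast isoforms, and a summed FPKM ratio of 1.16 in place of 1.12. The 8 genes known outside striated muscle were Des, Tpm2, Mb, Pvalb, Eno3, Mybpc1, Ldb3 and Ryr1. Leaving them out gave medians of 0.11 over the 27 members left, 0.18 over the fast and 0.04 over the slow isoforms. The summed ratio was then 1.52. Without Mybpc1 the family of myosin-binding protein C, with its -15.8 points, dropped out. The gain in fast share was 0.986 percentage points over the 4 families left and 0.774 over all 5, so these 2 values cover unlike sets. Chosen after seeing the data, the summed ratio was 1.44 without Tpm2 and 1.09 as fragment levels. The median difference in fast share over the 5 families was -0.849 points, a reversed sign, with families from -15.8 to 5.36 points. The 5.36 points are those of troponin C, whose fast gene Tnnc2 overlaps an exon of Ube2c over 84.6% of its transcript. Troponin T differed by 0.796 points, and the other families had a lower fast share at 6 months. The summed share without troponin C was not computed. Tnnc2 held 2.14 of the 15.7 FPKM summed over the fast genes at 2 months, and 5.57 of 22.3 FPKM at 6 months. The gain in the summed share is therefore not shown apart from Tnnc2. The cause was not tested. The number of genes at least 1.5-fold higher ranged from 5 to 9, in sets of unlike size. It was 6 of 35 as reported, against 0.742% of all genes with a value above 0, and 6 of 35 after scaling. A pseudocount of 0.1 gave 9 of 35, against 2.73% of all those genes. Of the 11 genes averaging 1 FPKM or more, 6 passed, Tcap included, against 133 of 12652 such genes. The shorter list gave 5 of 27.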

Other observations

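Among genes best known from the heart, a list of 9 showed no common direction. At 6 months 4 were higher (44.4%, near the 47.6% of all genes with a value above 0). Their median difference in log2(FPKM + 1) was -0.03. Nppb, the natriuretic peptide BNP, had 1.68 FPKM in 2 month cells and 0.543 FPKM in 6 month cells, a difference of -0.80. Tnnt2 and Myl7, the cardiac troponin T and the atrial regulatory light chain, were among the higher values of striated muscle genes in these cells, at 8.24 and 8.26 FPKM in the younger cells and 7.72 and 8.56 FPKM in the older ones. Lmod2, leiomodin 2, which nucleates actin filaments in striated muscle, had 5.36 and 3.42 FPKM, the opposite direction to Acta1. Mef2d and Mef2a, transcription factors that muscle shares with other tissues, had 16.2 and 13 FPKM in the younger cells and 16.5 and 15.1 FPKM in the older ones. The genes of this paragraph other than Mef2d, Tnnt2 and Myl7 were picked once their values were known.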
